A study of Hydra vulgaris with 36 samples.

Results

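Distal tentacle parts of the freshwater polyp Hydra vulgaris were compared directly between Sp5 RNAi and Zic4 RNAi animals. The comparison rests on 7 of the 36 libraries of the study, 3 labelled Sp5 RNAi and 4 labelled Zic4 RNAi, all from original tentacles cut by the authors into a distal and a proximal part. All animals were of strain Hm_105 and labelled wild type. RNA interference (RNAi) lowers the transcript of a chosen gene, here through small interfering RNA (siRNA) brought in by electroporation. Per the labels' protocols, groups of 20 to 30 animals received 3 electroporations with siRNA at 1.35 micromolar, and tissue was taken 7 days after the third. Mock RNAi animals are listed under the same protocol, and their distal parts (n = 4) and proximal parts (n = 4) served as the background. Tissue of several animals was pooled for RNA extraction, SmartSeq2 was used to amplify the cDNA and Tn5 transposase to fragment it. The labels do not say which libraries came from separate cultures, so p-values measure the spread between libraries, which may be technical.

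A Hydra tentacle is a sleeve of battery cells, epithelial cells that each carry mounted stinging cells (nematocytes), and it is supplied with cells from the head at its base. Cells are displaced from base to tip, so the distal part holds tissue that left the head region earlier. Sp5 is a transcription factor that responds to Wnt/beta-catenin signalling and restrains head formation in Hydra, and Zic4 is named in the study's title as a promoter of tentacle formation. Both are transcription factors, and the direct contrast asks where the RNA of tentacles differs when one or the other is targeted.

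The 7 libraries were of like depth, with 6.11 to 8.17 M (mega) counts after Sp5 RNAi and 5.02 to 7.56 M after Zic4 RNAi. Between 13057 and 13353 genes reached 10 counts in the Sp5 RNAi libraries and between 12129 and 13363 in the Zic4 RNAi libraries. One library stood apart from its label's group: Zic4 RNAi distal replicate 3 had a mean correlation of log2 CPM (counts scaled to a library of 1 M) across genes of 0.945 with the 3 Sp5 RNAi libraries and of 0.927 with the other Zic4 RNAi libraries. For the remaining 3 Zic4 RNAi libraries the correlation with their own group was the higher one. The count of calls, the counts against mock and the named genes that this library bears on are given with and without it. No row of the count table could be assigned to Zic4 or Sp5 by name, so how far each transcript was lowered was not measured.

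Few genes separated the treatments. Of 14332 genes tested with edgeR's quasi-likelihood test, 45 (0.314%) passed a Benjamini-Hochberg adjusted p of 0.05, which is the threshold for a call throughout. Of these, 24 (0.167%) were higher after Sp5 RNAi and 21 (0.147%) were higher after Zic4 RNAi. All 45 had no overlap between the 3 and the 4 libraries, which was also true of 1868 genes (13%) of all those tested. The median size of the log2 fold change was 2.34 over the called genes and 0.34 over all genes. At an unadjusted p of 0.05, 1580 genes (11%) passed. The 95% interval of the difference lay within 1 log2 unit of 0 for 4784 genes (33.4%) and within 2 log2 units for 12372 genes (86.4%), so for most genes a 4-fold difference, but not a 2-fold one, lay outside the interval. In RNA of whole tissue, fewer cells of a type and less RNA per cell cannot be told apart.

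The number of calls rested on single libraries. Without Zic4 RNAi distal replicate 3, 128 genes were called, 46 higher after Sp5 RNAi and 82 higher after Zic4 RNAi, and 44 of the 45 were among them. Without one of the other libraries the count was smaller. It was 10, 4 and 20 without Sp5 RNAi replicates 1, 2 and 3, and 34, 11 and 12 without Zic4 RNAi replicates 1, 2 and 4. The sign of the difference stayed the same for all 45 genes in each of these 7 fits. Since the arms did not overlap for any of the 45, leaving out a library could hardly change it. The kept sign is thus no measure of stability.

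**Figure D1:**
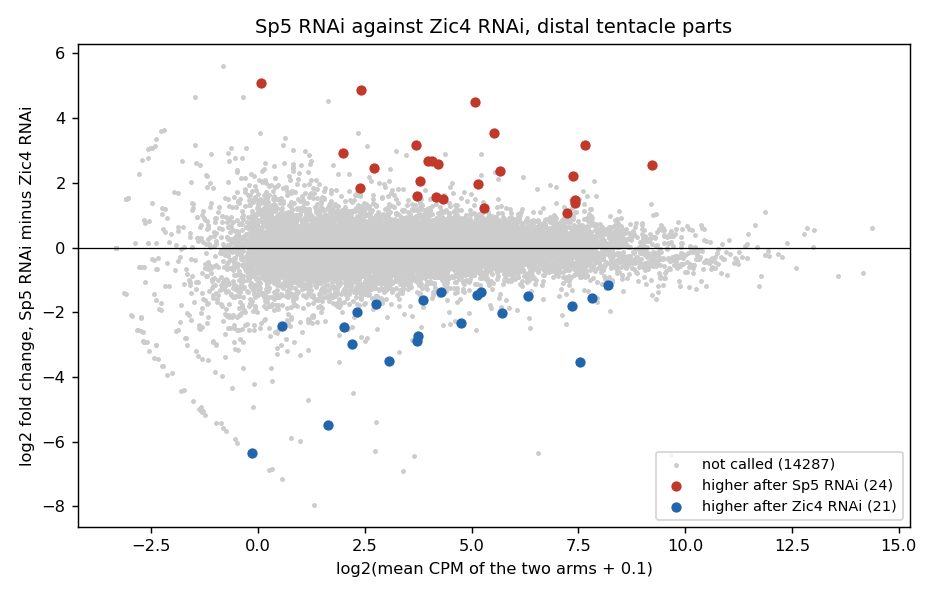
Log2 fold change between Sp5 RNAi and Zic4 RNAi distal parts (y axis) against the log2 mean CPM of both arms plus 0.1 (x axis), 1 point per gene tested. The 24 genes called higher after Sp5 RNAi are red, the 21 called higher after Zic4 RNAi are blue and the 14287 genes not called are grey; called genes span low and high levels.

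Of the 45 genes, 30 matched an entry of the RefSeq gene table of assembly HydraT2T_AEP, all listed there as protein coding. The table carries locus names without descriptions for them, so the genes are given by these names, and genes without a match by the identifier of the count table. The 30 matched genes lay on 11 chromosomes of that assembly, and no pair lay within 3 genes of each other.

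Among the genes higher after Sp5 RNAi, 3 stood clear of both Zic4 RNAi and mock distal parts and kept their call in all 16 alternative fits. The first, LOC105850223, was at 332, 455 and 304 CPM after Sp5 RNAi. After Zic4 RNAi it was at 20.1, 48.3, 46.3 and 46.5 CPM, and in mock distal parts from 13.6 to 50.2 CPM. The Zic4 RNAi and mock libraries thus shared one range, and the Sp5 RNAi libraries lay far above it. The log2 fold change between the treatments was 3.18 (SE 0.41, 95% interval 2.33 to 4.02), with an edgeR adjusted p of 0.000449.

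LOC105850880 followed the same order at lower levels. It was at 80.5, 103 and 72.1 CPM after Sp5 RNAi and at 6.12, 8.57, 6.03 and 8.69 CPM after Zic4 RNAi, with mock distal parts from 1.06 to 9.54 CPM. The log2 fold change was 3.53 (SE 0.47), with an edgeR adjusted p of 0.000449. LOC105847521 was at 7.63, 7.57 and 15.0 CPM after Sp5 RNAi. It stayed at or under 0.686 CPM in the 4 Zic4 RNAi libraries and at or under 1.58 CPM in the 4 mock distal libraries. Its log2 fold change was 4.86 (SE 0.67), with an edgeR adjusted p of 0.000449.

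A further 3 genes lost their call only without Sp5 RNAi replicate 2. LOC100205528 was at 153, 453 and 210 CPM after Sp5 RNAi and from 45.3 to 74.2 CPM after Zic4 RNAi, a log2 fold change of 2.22 that replicate 2 carried in part. LOC105847784 was at 30.4, 35.6 and 28.7 CPM after Sp5 RNAi against 1.93 to 9.67 CPM after Zic4 RNAi. LOC100210515 was at 22.8, 29.1 and 17.8 CPM after Sp5 RNAi against 1.26 to 3.50 CPM after Zic4 RNAi. Mock distal parts held LOC105847784 at 1.99 to 6.68 CPM, the range of the Zic4 RNAi arm, but LOC100210515 at 3.28 to 17.4 CPM, between the arms.

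LOC100206043 was at 43.9, 96.8 and 52.8 CPM after Sp5 RNAi, and at 0.537, 1.03, 8.55 and 1.21 CPM after Zic4 RNAi. The value of 8.55 CPM belongs to Zic4 RNAi replicate 3, the library that stood apart, and still lay below every Sp5 RNAi library. The log2 fold change was 4.51 (SE 0.95), with an edgeR adjusted p of 0.0396. The call was kept in only 6 of the 16 alternative fits. The most abundant called gene was the one with identifier 105850242, at 1175, 1089 and 815 CPM after Sp5 RNAi and at 154, 164, 293 and 95.8 CPM after Zic4 RNAi. Mock distal parts covered 86.0 to 598 CPM for this gene and so reached from the Zic4 RNAi range to above it.

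LOC105848435 and the gene with identifier 100213519 had like levels in most of the 7 libraries. The former was at 24.2, 34.2 and 22.2 CPM and the latter at 29.3, 33.1 and 23.6 CPM after Sp5 RNAi. In Zic4 RNAi replicate 4 they were apart, at 1.41 and 5.26 CPM. Their log2 fold changes were both 2.66. How reads shared between similar genes were counted is not given in the sources used here, and whether these are separate measurements was not tested. LOC100201922 and LOC100201901 completed the genes named by rule, with log2 fold changes of 2.36 and 1.96. The other 12 genes higher after Sp5 RNAi had log2 fold changes from 1.06 to 5.09 and adjusted p-values up to 0.0451.

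**Figure D2:**
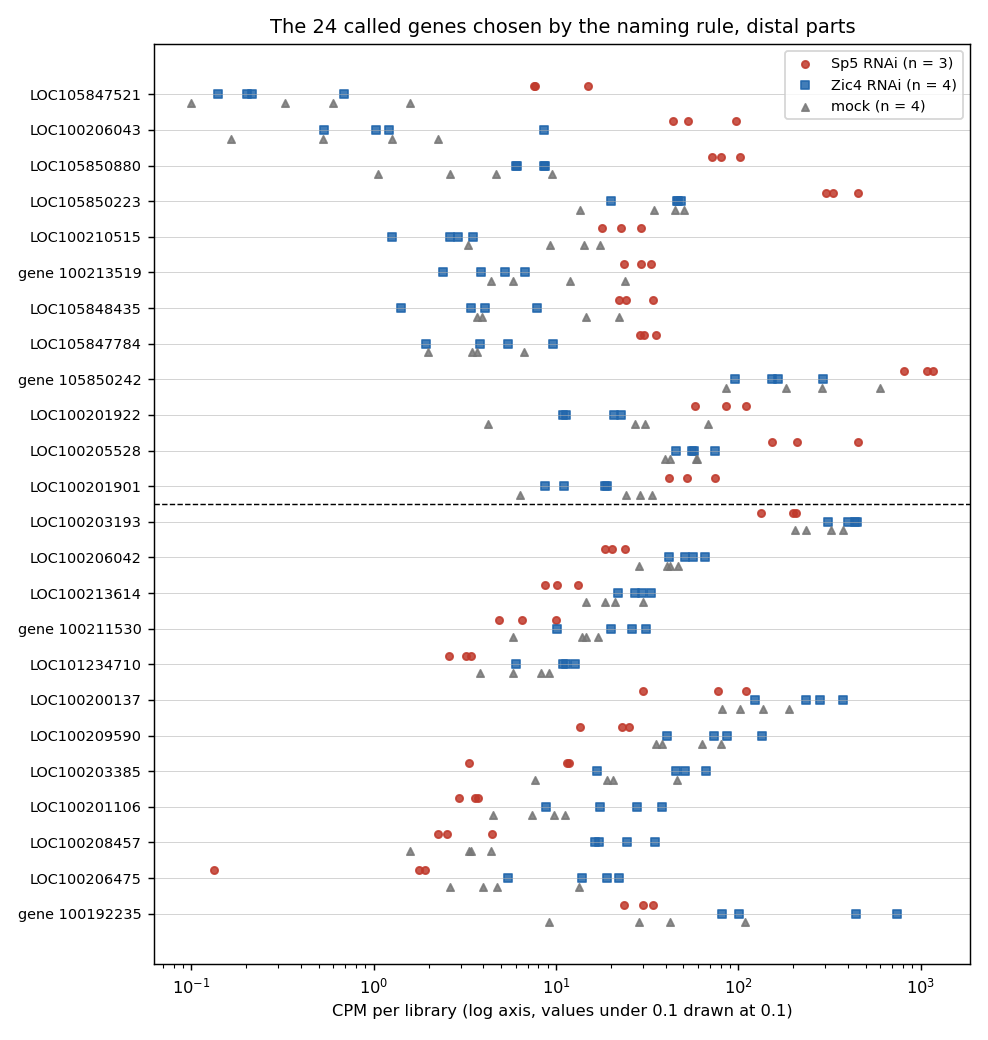
CPM per library on a log axis (x axis) for the 24 called genes chosen by the naming rule (y axis), with Sp5 RNAi libraries as red circles (n = 3), Zic4 RNAi libraries as blue squares (n = 4) and mock distal libraries as grey triangles (n = 4). The 12 genes above the dashed line are higher after Sp5 RNAi and the 12 below it higher after Zic4 RNAi; in each row red and blue do not overlap, and the grey points lie in or between the ranges of the arms for most genes.

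Among the genes higher after Zic4 RNAi, LOC100208457 alone kept its call in all 16 alternative fits. It was at 16.4, 34.7, 17.2 and 24.5 CPM after Zic4 RNAi and at 2.51, 4.46 and 2.26 CPM after Sp5 RNAi. Mock distal parts were at 1.58 to 4.43 CPM, the range of the Sp5 RNAi arm. The log2 fold change, Sp5 RNAi minus Zic4 RNAi, was -2.90 (SE 0.42, 95% interval -3.77 to -2.03), with an edgeR adjusted p of 0.000968.

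LOC100201106 was at 17.4, 27.9, 8.83 and 38.2 CPM after Zic4 RNAi and at 3.61, 3.73 and 2.93 CPM after Sp5 RNAi, a log2 fold change of -2.74. LOC100206475 was at 19.0, 22.2, 5.47 and 13.9 CPM after Zic4 RNAi and at 1.91, 1.76 and 0.133 CPM after Sp5 RNAi, a log2 fold change of -3.52. LOC100203385 was at 50.8, 66.2, 16.8 and 45.5 CPM against 11.8, 3.32 and 11.4 CPM, a log2 fold change of -2.34. In these 3 genes the lowest Zic4 RNAi value was that of replicate 3, and it still lay above the Sp5 RNAi arm. Their calls were kept in 14, 14 and 7 of the 16 alternative fits.

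The gene with identifier 100192235 was at 81.4, 740, 101 and 444 CPM after Zic4 RNAi and at 29.9, 23.7 and 34.2 CPM after Sp5 RNAi, a log2 fold change of -3.54 (SE 0.76) with an edgeR adjusted p of 0.0396. Zic4 RNAi replicates 2 and 4 held most of the difference, and replicates 1 and 3 lay near the highest mock distal value of 108 CPM. The call of this gene was kept in 7 of the 16 alternative fits. LOC100209590 was at 135, 73.8, 40.7 and 86.5 CPM against 25.3, 13.5 and 23.0 CPM. The smallest difference among the named genes was that of LOC100203193, at 402, 449, 312 and 439 CPM after Zic4 RNAi and 208, 134 and 201 CPM after Sp5 RNAi, a log2 fold change of -1.15.

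A pair of low genes, outside the naming rule and picked out after their values were seen, was close to absent in Sp5 RNAi and mock distal parts. LOC101234926 had 0 counts in all 3 Sp5 RNAi distal and all 4 mock distal libraries, and was at 1.93, 1.26, 0.280 and 3.03 CPM after Zic4 RNAi. The gene with identifier 105844618 was at 1.82, 10.97, 2.24 and 8.49 CPM after Zic4 RNAi and at or under 0.266 CPM in the Sp5 RNAi libraries. No fold is given for LOC101234926, since one arm is at 0. In proximal parts both were again found in all 4 Zic4 RNAi libraries, at 2.85 to 4.13 CPM and at 2.97 to 6.12 CPM. Of the pair, only the gene with identifier 105844618 was called between the treatments there.

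Zic4 RNAi replicate 3 was the Zic4 RNAi library nearest the Sp5 RNAi arm for 29 of the 45 genes, against 10, 3 and 3 for replicates 1, 2 and 4. Within the Sp5 RNAi arm, replicate 3 was nearest the Zic4 RNAi arm for 25 genes, replicate 1 for 14 and replicate 2 for 6. Leaving out the Zic4 RNAi library nearest the other arm raised the count of calls, and leaving out the Sp5 RNAi library farthest from it lowered the count most.

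Mock distal parts show which arm departed from the background for a given gene. Both contrasts with mock share the mock libraries and are set side by side only. They also reuse the treated libraries by which the 45 genes were chosen. Shares above those of all genes, and their direction, are thus in part given by that choice. Of the 24 genes higher after Sp5 RNAi, 8 were called higher in Sp5 RNAi than in mock distal parts (1.69% of all genes were), 2 were called lower in Zic4 RNAi than in mock (1.33% of all genes), and 14 were called in neither. Of the 21 genes higher after Zic4 RNAi, 6 were called higher in Zic4 RNAi than in mock (2.32% of all genes), 5 were called lower in Sp5 RNAi than in mock (0.6% of all genes), and 10 were called in neither. No gene was called in both contrasts, and the mock mean lay between the means of the arms for 37 of the 45. A wide gap between the arms, by which the genes were chosen, makes this position more frequent. Its share over all genes was not counted. Without Zic4 RNAi replicate 3, 7 of the 21 were called above mock and 2 of the 24 below it in the Zic4 RNAi arm, and the mock mean lay between the arms for 40.

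The 8 genes called above mock in the Sp5 RNAi arm were LOC105847521, LOC100206043, LOC105850880, LOC105850223, LOC105847784, LOC100205528 and the genes with identifiers 105850242 and 100205916. Their log2 fold changes against mock ran from 1.18 for 100205916 to 5.74 for LOC100206043. The 2 genes called below mock in the Zic4 RNAi arm were LOC100214732, with 1 count in the 4 Zic4 RNAi libraries together and 2.51 to 10.0 CPM in mock, and LOC100210515, with a log2 fold change against mock of -2.06. The 6 genes called above mock in the Zic4 RNAi arm were LOC100208457 (log2 fold change 2.78), LOC100201106 (1.48), LOC101234926 and the genes with identifiers 100192235 (2.89), 105844618 and 100202949 (1.16). The 5 genes called below mock in the Sp5 RNAi arm were LOC100203152, LOC100209590, LOC100206475 and the genes with identifiers 100213023 and 100205606, with log2 fold changes from -2.46 to -1.39. The called differences thus held departures from mock in either arm and in either direction.

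Most genes higher after Zic4 RNAi were also higher in the proximal part of the mock tentacle. The contrast between mock distal and mock proximal parts uses none of the 7 libraries. Of the 21 genes higher after Zic4 RNAi, 17 were called lower in mock distal than in mock proximal parts, as were 13.6% of all genes, and none was called higher (15.9% of all genes). Of the 24 genes higher after Sp5 RNAi, 8 were called higher in mock distal parts and 1 was called lower; the sign was positive for 16 and negative for 8. The median log2 difference, mock distal minus mock proximal, was -1.65 over the former, 0.61 over the latter and 0.03 over all genes.

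The gene with identifier 100192235 was the extreme case, at 4381, 3898, 3703 and 1630 CPM in mock proximal parts against 9.19, 28.4, 42.5 and 108 CPM in mock distal parts. Its 4 Zic4 RNAi distal values of 81.4 to 740 CPM lay below the mock proximal range and above 3 of the 4 mock distal values. LOC100201106 was at 77.2, 158, 134 and 75.0 CPM in mock proximal parts, a log2 difference of -3.75, and also rose above mock in Zic4 RNAi distal parts. LOC100206042 and LOC100203385 had log2 differences of -2.22 and -2.21. On the other side, LOC100201922, LOC100201901 and LOC100197315, all higher after Sp5 RNAi, were higher in mock distal parts by 2.01, 1.61 and 1.38 on the log2 scale. Of the genes higher after Sp5 RNAi, LOC105847521 was the one called lower in mock distal parts, at 6.18 to 15.7 CPM in mock proximal and at most 1.58 CPM in mock distal parts.

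The mock proximal libraries differed from the mock distal ones in more than these genes. Their TMM (trimmed mean of M values) scaling factors were 0.541 to 0.777 against 0.929 to 1.22, and 8243 to 11966 genes reached 10 counts against 9240 to 12930. Leaving out each of the 8 mock libraries in turn gave 16 or 17 of the 21 genes, and 13 of the 21 and 5 of the 24 were called when the mock libraries were fitted alone. The part that the distal to proximal difference of the mock tentacle has in the difference between the treatments was not tested.

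**Figure D3:**
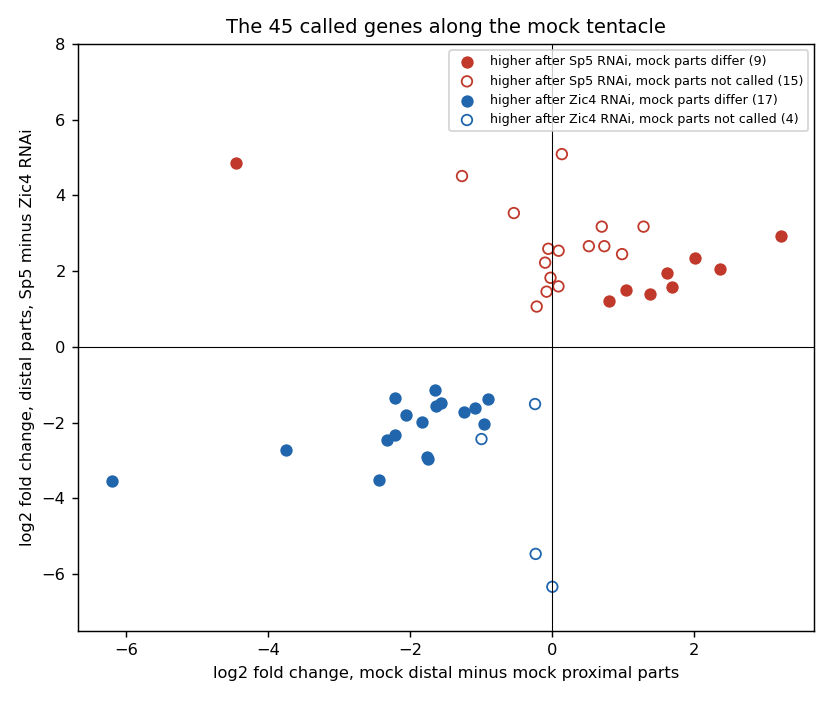
Log2 fold change between mock distal and mock proximal parts (x axis, negative where proximal is higher) against that between Sp5 RNAi and Zic4 RNAi distal parts (y axis) for the 45 called genes; filled points are called between the mock parts. All 17 filled blue points lie left of 0, and of the 9 filled red points 8 lie right of 0 and 1, LOC105847521, lies left of it; LOC101234926, with 0 counts in all 8 mock libraries, is drawn at 0.

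The proximal parts repeat the contrast in 7 other libraries. Proximal and distal parts may come from the same animals, which the labels do not say. Between Sp5 RNAi and Zic4 RNAi proximal parts, 526 genes (3.67%) were called, 362 (2.53%) higher after Sp5 RNAi and 164 (1.14%) higher after Zic4 RNAi. Of the 24 genes higher after Sp5 RNAi in distal parts, 13 were called in the same direction in proximal parts and 23 had the same sign. Of the 21 genes higher after Zic4 RNAi, 3 were called in the same direction and 14 had the same sign. The share of same signs over all genes was not counted. The median proximal log2 fold change over all genes was 0, so part of the agreement in sign needs no shared difference. None of the 45 was called in the opposite direction. The 16 shared genes were 35.6% of the distal and 3.04% of the proximal calls.

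The genes that led the distal comparison on the Sp5 RNAi side were also apart in proximal parts. LOC105850223 was at 405, 418 and 221 CPM after Sp5 RNAi and at 24.9, 13.4, 21.3 and 41.6 CPM after Zic4 RNAi, a log2 fold change of 3.78 with an edgeR adjusted p of 1.4e-05. LOC105850880 was at 54.1, 61.8 and 65.4 CPM against 3.96 to 8.84 CPM, a log2 fold change of 3.36. LOC105847521 was at 26.0, 31.1 and 19.4 CPM against 0.510 to 2.73 CPM, a log2 fold change of 4.10. Unlike in distal parts, mock proximal parts held LOC105847521 at 6.18 to 15.7 CPM, between the arms.

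The genes that led on the Zic4 RNAi side mostly did not separate in proximal parts. LOC100201106 was at 83.0, 54.3 and 46.6 CPM after Sp5 RNAi and at 40.3, 63.7, 42.3 and 38.7 CPM after Zic4 RNAi. LOC100208457 was at 16.5, 12.6 and 11.3 CPM against 28.9, 32.9, 14.7 and 15.5 CPM. The arms overlapped in both genes, which were at higher levels in the proximal than in the distal parts of the Sp5 RNAi arm. The 3 genes called in both parts were those with identifiers 100213023, 100199389 and 105844618, with proximal log2 fold changes of -2.22, -1.36 and -3.60. Over the 21 genes the median proximal log2 fold change was -0.27, against 1.60 over the 24 genes of the other direction and 0 over all genes.

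Whether the difference between the treatments itself differed between parts was tested with an interaction term. It was called by edgeR for 2 of the 14332 genes (0.014%) and at an unadjusted p of 0.05 for 2107 (14.7%). DESeq2 called 145. None of the 45 genes was among the 2, and at an unadjusted p of 0.05 there were 5 of the 24 and 15 of the 21. The interaction contains the distal difference by which the 45 were chosen, which raises these counts. They cannot be read against the 14.7% of all genes as a sign that the differences belong to distal parts. The 2 genes called for the interaction were those with identifiers 105843628 and 101237310. The former was at 28.5, 15.6 and 21.96 CPM after Sp5 RNAi and 11.8 to 23.0 CPM after Zic4 RNAi in distal parts, but at 75.5, 53.2 and 42.5 CPM against 3.63 to 7.89 CPM in proximal parts. The latter was lower after Sp5 RNAi in distal parts, at 2.07 to 4.13 CPM against 6.59 to 12.1 CPM, and higher in proximal parts, at 23.5 to 55.7 CPM against 8.17 to 17.3 CPM. Depth moved with treatment in the proximal parts, at 2.57 to 3.22 M counts after Sp5 RNAi and 6.91 to 10.59 M after Zic4 RNAi. With the number of genes reaching 10 counts as a covariate, 59 genes were called in proximal parts, among them 8 of the 24 and 1 of the 21, and none for the interaction, and without 1 library the interaction was called for 0 to 7 genes.

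**Figure D4:**
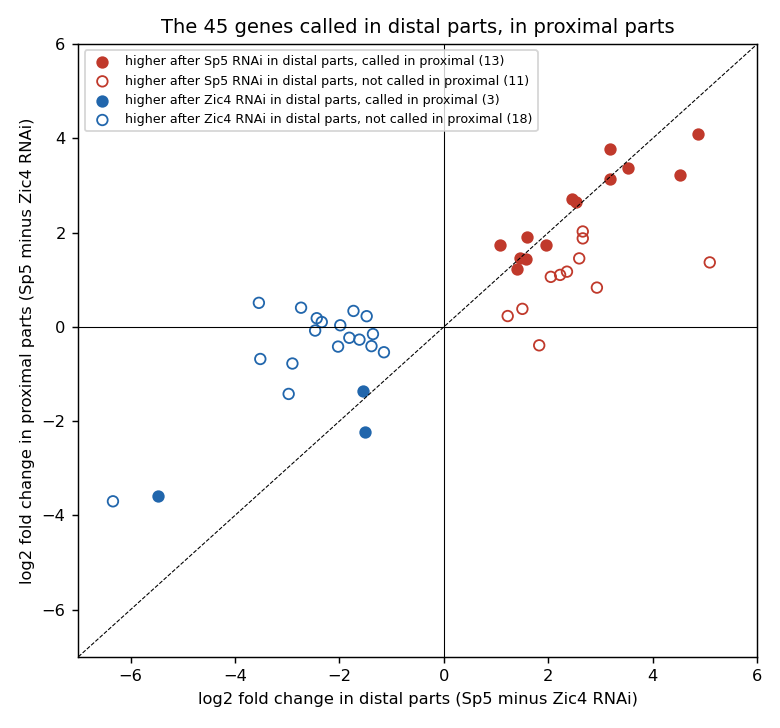
Log2 fold change between Sp5 RNAi and Zic4 RNAi in distal parts (x axis) and in proximal parts (y axis) for the 45 genes called in distal parts; filled points are also called in proximal parts and the dashed line marks equal values. Of the red points (higher after Sp5 RNAi), 13 are filled and 23 lie above 0, while 18 of the 21 blue points (higher after Zic4 RNAi) are open and most lie near 0 on the y axis.

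Ectopic tentacles, which grew outside the normal position, offer the same genes in another tissue. In Sp5 RNAi ectopic tentacles, 5 of the 24 genes higher after Sp5 RNAi were called above mock and 4 below it, against 18.9% and 16.8% of all genes. Of the 21 genes higher after Zic4 RNAi, 5 were called above mock there and 1 below. LOC105850223, LOC105850880 and LOC105847521 were at 21.7 to 43.3, 1.20 to 7.41 and 0.150 to 1.37 CPM in Sp5 RNAi ectopic tentacles. All 3 lay far below their levels in the Sp5 RNAi distal parts, which came from animals with the same RNAi treatment. LOC100206043, at 36.4, 31.1 and 26.1 CPM, and LOC100205528, with a log2 difference from mock of 2.25, were called above mock also in ectopic tentacles. LOC101234926 and the gene with identifier 105844618, both absent or nearly so in Sp5 RNAi distal parts, were at 0.150 to 1.78 and 0.782 to 3.44 CPM in Sp5 RNAi ectopic tentacles.

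Animals treated against both genes were measured as whole tentacles with their own mock libraries (n = 3), and all 45 genes were tested there. In original tentacles of these Zic4/Sp5 RNAi animals (n = 4), 1 of the 24 genes was called above mock (2.36% of all genes were) and none of the 21, and none of the 45 was called below it (2.03% of all genes). This was LOC105850223, at 41.2, 77.1, 19.4 and 24.8 CPM against 7.08, 8.67 and 13.3 CPM in mock, a log2 fold change of 2.06 with an edgeR adjusted p of 0.0414. In ectopic tentacles of these animals (n = 4), 5 of the 21 genes were called above mock and none below, while of the 24 genes 1 was called above and 4 below, against 15% of all genes in either direction. Whole tentacles and tentacle parts were handled and fitted apart, so levels are not compared between them.

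Genes with an established name were few in the gene table, and none was called between Sp5 RNAi and Zic4 RNAi distal parts. Of 76 such genes, 64 were tested, 0 were called by edgeR against 0.314% of all genes, and 10 passed an unadjusted p of 0.05 (11% of all genes did). The median log2 fold change over the 64 was -0.07, and 27 were positive. Where arms are said below not to overlap, 13% of all genes tested also had none, so this alone is no sign of a difference.

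Wnt ligands are secreted signals that organise the head and, for hywnt5a and hywnt8, mark tentacle formation in Hydra. The level of hywnt5a was 266, 352 and 275 CPM after Sp5 RNAi and 272, 187, 356 and 285 CPM after Zic4 RNAi. The ranges overlapped, and the 95% interval of the log2 difference was -0.41 to 0.63. For hywnt8 the interval was -0.78 to 0.63, with 27.3 to 64.7 CPM over both arms. The ligands hywnt7 and hywnt11, which belong to the set expressed at the head tip, were low. In Zic4 RNAi libraries hywnt7 was at 7.51, 18.9, 14.7 and 27.1 CPM, above its Sp5 RNAi values of 5.32, 0 and 7.05 CPM, while mock distal parts held 0 to 1.64 CPM. The log2 difference of -2.05 (95% interval -4.33 to 0.23) did not pass the test, with an edgeR adjusted p of 0.509. For hywnt11, at 0.702, 3.11 and 1.60 CPM after Sp5 RNAi and 3.00, 3.66, 1.96 and 11.3 CPM after Zic4 RNAi, the interval was -2.75 to -0.09, with an edgeR adjusted p of 0.408. Against mock distal parts, where hywnt11 was at 0 in 3 of 4 libraries, both were called higher after Zic4 RNAi, with edgeR adjusted p-values of 0.0428 for hywnt7 and 0.0022 for hywnt11, and neither was called after Sp5 RNAi (0.368 and 0.0792). Without Zic4 RNAi replicate 3 these values against mock were 0.0584 for hywnt7, which ends its call, and 0.0014 for hywnt11, and between the treatments they were 0.445 and 0.233. The other tested ligands, hywnt16 and Wnt3a, had means below that of mock distal parts in both arms. Mean hywnt16 was 5.86 CPM after Sp5 RNAi, 8.28 CPM after Zic4 RNAi and 10.0 CPM in mock. Mean Wnt3a was 2.12, 2.12 and 4.62 CPM in the same order. Neither gene was called against mock or between the treatments.

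Among intracellular and receptor components, ctnnb1 (beta-catenin, the mediator of Wnt signalling in the nucleus) had an interval of -0.68 to 0.69 and GSK3, the kinase that marks beta-catenin for breakdown, one of -0.49 to 0.47. Both intervals leave out a 2-fold difference in either direction. The Frizzled receptor hyfzd5/8 was at 211, 205 and 200 CPM after Sp5 RNAi and at 159, 102, 141 and 139 CPM after Zic4 RNAi. The arms did not overlap, but the log2 difference of 0.60 (95% interval 0.13 to 1.07) had an edgeR adjusted p of 0.292, or 0.258 without Zic4 RNAi replicate 3. In proximal parts the same receptor was called higher after Sp5 RNAi, with a log2 fold change of 1.67 and an edgeR adjusted p of 0.000138.

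Among tentacle and head genes, Alx, a homeobox gene of the tentacle zone, was at 20.2 to 27.4 CPM after Sp5 RNAi and 18.8 to 38.6 CPM after Zic4 RNAi, with an interval of -0.83 to 0.50. Annexin-12, a calcium-binding protein gene typical of battery cells, was at 1472, 1337 and 1524 CPM after Sp5 RNAi and at 2588, 2152, 1551 and 4137 CPM after Zic4 RNAi. All Sp5 RNAi values lay below all Zic4 RNAi values, with Zic4 RNAi replicate 3 the closest, and the interval was -1.74 to 0.03, or -1.95 to -0.11 without that library, at an edgeR adjusted p of 0.298. In proximal parts Annexin-12 had the opposite sign, with a log2 fold change of 1.36 and an edgeR adjusted p of 0.0634. Mock distal parts ran from 1886 to 7783 CPM, so the tissue carried this tentacle marker in every library. The T-box gene Bra2, a head gene, had a log2 difference of 1.38 and an edgeR adjusted p of 0.243. Its proximal log2 fold change was -0.72, with an edgeR adjusted p of 0.436. HyBra1 had 6 counts in 1 of the 7 libraries and none in the others. The foot gene CnNK-2, the one basal disk marker matched, had 5 counts in 1 Sp5 RNAi library and 2 counts in 1 Zic4 RNAi library, so it gave no measure of foot tissue.

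Among genes of the extracellular matrix, the layer between the epithelia, col2 (a collagen) came nearest to a call. It was at 350, 308 and 296 CPM after Sp5 RNAi, at 761, 843, 592 and 1285 CPM after Zic4 RNAi and at 639 to 1197 CPM in mock distal parts. The Sp5 RNAi libraries lay below all others. Against mock, col2 was called lower after Sp5 RNAi, at a log2 fold change of -1.40 and an edgeR adjusted p of 0.0249, and the log2 difference from Zic4 RNAi of -1.45 (95% interval -2.15 to -0.75) had an edgeR adjusted p of 0.0565. It was called without Zic4 RNAi replicate 3, at an adjusted p of 0.0262, by DESeq2, at 0.0037, and by limma voom, at 0.0402. A second collagen gene, named collagen, was at 159 to 185 CPM against 174 to 748 CPM, with overlap and a log2 difference of -1.21. The matrix protease gene mmp had an interval of -0.63 to 0.86.

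None of the tested genes of nematocytes, interstitial stem cells and gland cells was called between the arms. No list of neuron markers was among those used, and 0 of 3 neuropeptide-gated channel genes were tested. The 9 nematocyte genes summed to 46.7 to 57.5 CPM after Sp5 RNAi, 41.8 to 84.7 CPM after Zic4 RNAi and 44.3 to 90.3 CPM in mock, and 0 of 9 were called. Their means after Sp5 RNAi were low, from 0.33 CPM for nb035 to 19.2 CPM for CnASH. The list includes genes of nematocyte precursors (nb001, nb012), so it does not measure mounted nematocytes alone. The 3 interstitial stem cell genes summed to 179 to 195, 150 to 333 and 160 to 306 CPM, and 0 of 3 were called. The gland cell genes kazal1 and kazal4 summed to 0.10 to 1.06 CPM after Sp5 RNAi, 0.40 to 24.3 CPM after Zic4 RNAi and 1.07 to 4.23 CPM in mock. The highest value came from Zic4 RNAi replicate 2, which held 212 counts of kazal1. The abundant genes EF1a, a translation factor, and RACK1, a ribosome-bound protein, had log2 differences of -0.64 and -0.94, with edgeR adjusted p-values of 0.350 and 0.412.

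**Figure D5:**
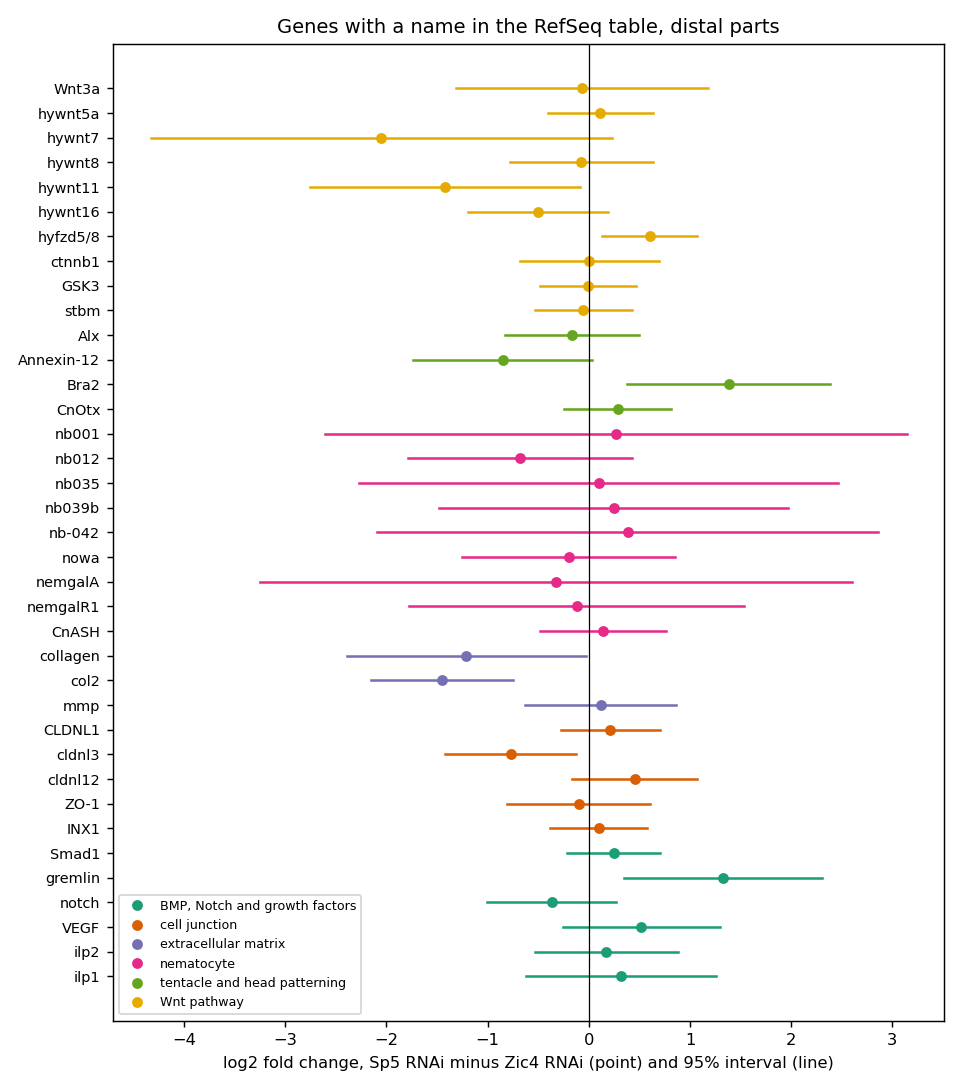
Log2 fold change between Sp5 RNAi and Zic4 RNAi distal parts (x axis; points) with its 95% interval (lines) for named genes (y axis) of 6 groups shown in colour. Most intervals include 0; the interval of col2, from -2.15 to -0.75, lies farthest below it, and those of several nematocyte genes and of hywnt7 are wide.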

How the data were processed

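The authors deposited 1 table of raw read counts per gene, 22608 genes in 36 libraries, which was used as deposited. Demultiplexing with bcl2fastq and alignment with STAR 2.5.0 are named in the submitters' processing notes. The counting program, strandedness, handling of shared reads and genome build are not given in the sources used here, so values of similar genes are uncertain. No molecular identifiers are mentioned in the labels' protocols. Every column was mapped to its sample by name.

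The 25 libraries of tentacle parts and Sp5 RNAi ectopic tentacles were fitted together in edgeR 4.0.16 (R 4.3.3), so that 7 groups shared one estimate of the spread. Low counts were removed with filterByExpr, libraries were scaled by TMM, and each contrast was taken from the robust quasi-likelihood model. P-values were adjusted by the Benjamini-Hochberg method over 14332 genes. Standard errors were derived from the F statistic. CPM are TMM-scaled. The 11 whole-tentacle libraries were fitted apart, over 14826 genes. Ectopic tentacles were set against the mean of the mock distal and proximal groups. All 9 replicate pairs of the 2 groups differed beyond sampling noise (chi-square per degree of freedom 21.8 to 60.1). The fit was tested on simulated counts drawn with its own estimates of the spread and with no library set apart. That test could not show how the calls depend on single libraries.

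Named genes were, among called genes with at least 10 CPM in the higher arm and no overlap, the 10 largest in each direction with a RefSeq match and the 2 largest without. The members, lists and tests were chosen with earlier results of these data known. The contrast of mock parts was added after values were seen. Alternatives were other sets of libraries, RLE scaling, other filters, DESeq2 1.42.0, limma 3.58.1 voom, the number of genes reaching 10 counts as a covariate, the replicate number as a block and leaving out each library.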

Additional observations from a re-analysis of the deposited data

Results flagged for a closer look

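In 9 of 130 groups of 4 libraries examined, 1 library was flagged as far from the other 3 for its gene, by gap over range. The chance rate of about 1 in 20 holds for normally distributed values only. Where the other 3 libraries are at 0, any value above 0 is flagged. This was the case for LOC100214732, hywnt11, HyBra1 and CnNK-2. In the Zic4 RNAi distal group these were LOC100214732 in replicate 4 (0.202 CPM, others 0), LOC105847521 in replicate 2 (0.686 CPM, others 0.140 to 0.215 CPM), LOC100206043 in replicate 3 (8.55 CPM, others 0.537 to 1.21 CPM), LOC105850223 in replicate 1 (20.1 CPM, others 46.3 to 48.3 CPM) and the gene with identifier 100205916 in replicate 3 (159 CPM, others 67.8 to 70.5 CPM). HyBra1 in replicate 2 (0.686 CPM) and CnNK-2 in replicate 1 (0.215 CPM) were at 0 in the other 3 Zic4 RNAi libraries. In the mock distal group, replicate 1 had hywnt11 at 0.596 CPM, with the others at 0, and hyfzd5/8 at 116 CPM, with the others from 165 to 173 CPM.

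The difference between Sp5 RNAi and Zic4 RNAi differed between distal and proximal parts by an interaction term for the genes with identifiers 105843628 (log2 difference -2.83, SE 0.50) and 101237310 (log2 difference -3.31, SE 0.58), each at an edgeR adjusted p of 0.0370.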

How the results depend on the processing

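The called genes kept their sign in each alternative fit that tested them (14 of 16 for LOC100214732 and LOC101234926, 16 for the others), and 4 kept their call in all 16. The arms did not overlap for any of the 45, so the kept sign is no measure of stability. Beside the 45 calls (24 and 21 by direction), there were 219 (82 and 137) with DESeq2, 74 (43 and 31) with limma voom, 78 (36 and 42) with the covariate for genes reaching 10 counts and 14 (9 and 5) with the 11 distal libraries alone. Leaving out 1 library gave 4 to 128 calls (3 to 46 and 1 to 82). Same-numbered libraries of the arms had correlations of 0.162, -0.126 and -0.178, and libraries with different numbers ones from -0.194 to 0.162. So few values cannot decide whether the numbers pair the libraries. With the replicate block, 18 genes were called (11 and 7), 0 for the interaction, and mmp was at -0.0081. In proximal parts, 1121 genes were called with DESeq2, 1189 with the groups alone, 59 with the covariate and 129 to 830 without 1 library. The interaction gave 145 with DESeq2, 90 with the groups alone, 0 with the covariate, 4 without a filter and 0 to 7 without 1 library. Of the distal calls, 8 and 1 were called in proximal parts with the covariate, and 9 to 14 and 1 to 4 without 1 library. For the mock parts, 4221 genes were called, 1981 with the groups alone, 2331 with the covariate and 2886 to 5270 without 1 library; of the 24 genes higher after Sp5 RNAi, 5 were called under each of the first 2 of these alternatives and 7 to 9 without 1 library. These counts for proximal and mock parts were added after the data were seen. Named genes near 0 changed sign: the log2 difference of ctnnb1 was -0.0056 with the stricter filter, -0.039 with the 7 libraries alone, -0.11 with the covariate, -0.0014 without a filter and -0.034 with the 11 distal libraries. Without 1 library, differences ran from -0.31 to 0.043 for Alx, -0.16 to 0.18 for ctnnb1, -0.24 to 0.16 for GSK3, -0.032 to 0.26 for hywnt5a, -0.41 to 0.23 for hywnt8, -0.090 to 0.25 for mmp, -0.16 to 0.035 for stbm and -0.65 to 0.29 for Wnt3a. The causes were not tested.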
